A study of Mus musculus with 10 samples.

Results

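A set of 7 genes of ectoenzymes and purine signalling was followed here: Entpd1, Nt5e, Cd38, Ada, Adora2a, P2rx7 and Dpp4. They were chosen by name, as 7 of the 53656 genes in the deposited count tables, and all 7 passed the filter on low counts. RNA was sequenced from 10 libraries of CD4 T cells with the transgenic SMARTA T cell receptor, which recognises the GP61 peptide. The cells were transferred naive into B6 mice that had been treated with cytoxan (cyclophosphamide) and carried B16-GP61 tumours, a B16 melanoma line with that peptide. They were sorted 11 days later from the tdLN, the lymph node that drains the tumour. The first group was TOX knockout (KO, 6 libraries), sorted as CD4 positive, Ly5.1 positive, Ly5.2 negative and low for PD1, LAG3 and CD39. The second was TOX wild type (WT, 4 libraries), sorted as CD4 positive, positive for both Ly5.1 and Ly5.2, and high for PD1, LAG3 and CD39. TOX is a nuclear HMG-box protein known from T cell development and T cell exhaustion. Genotype, gate and congenic marker change together, so they cannot be told apart in any difference below. Entpd1 encodes CD39, a gate protein, so its own difference is tied to the sort. The RNA of the other gate proteins followed the gate for PD1 and not for LAG3. Pdcd1 was at 326 to 515 CPM (counts scaled to library size with TMM factors) in KO and 812 to 1564 CPM in WT, while Lag3 was at 83.4 to 427 CPM in KO and at 319.7, 7.53, 36.2 and 8.96 CPM in WT replicates 1 to 4.

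As background, ATP and NAD that leave cells act as signals, and enzymes on the cell surface break them down. CD39 (Entpd1) removes phosphates from ATP and ADP, and CD73 (Nt5e) turns the resulting AMP into adenosine, while CD38 consumes NAD. Adenosine acts on T cells through the receptor that Adora2a encodes, which raises cAMP and dampens their activation, and adenosine deaminase (Ada) converts adenosine to inosine. P2X7 (P2rx7) is an ion channel opened by ATP. CD26 (Dpp4) is a surface peptidase that also binds adenosine deaminase in some species.

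Promoter windows were available from RefSeq (GRCm38.p6) for 6 of the 7 genes, and not for Adora2a. Those of Nt5e and Cd38 began inside annotated UTR sequence and are not shown. The window of the first Entpd1 start had only 29 bases before such sequence and is not shown either. The 4 windows below are shown because they let the base composition upstream of genes with different patterns be compared. Each runs 5′ to 3′ on the gene's strand up to the base before the start site, and capitals mark matches to motifs searched on both strands. The motifs were the GC box GGGCGG, AP-1 TGANTCA, CRE TGACGTCA and RUNX TGTGGT, of which GGGCGG and TGANTCA were found.
Entpd1, second start, chr19:40659520-40659769, plus strand: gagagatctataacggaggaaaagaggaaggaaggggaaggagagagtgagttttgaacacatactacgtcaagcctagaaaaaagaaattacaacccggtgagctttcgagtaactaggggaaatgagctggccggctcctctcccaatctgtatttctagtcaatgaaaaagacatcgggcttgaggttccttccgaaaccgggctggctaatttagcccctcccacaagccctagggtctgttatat
Ada, chr2:163750240-163750489, minus strand: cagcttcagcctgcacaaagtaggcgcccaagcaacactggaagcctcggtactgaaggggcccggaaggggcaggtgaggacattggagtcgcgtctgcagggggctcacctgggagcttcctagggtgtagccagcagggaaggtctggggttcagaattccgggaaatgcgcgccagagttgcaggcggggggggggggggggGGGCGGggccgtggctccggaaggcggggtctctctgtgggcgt
P2rx7, first start, chr5:122643677-122643910, plus strand: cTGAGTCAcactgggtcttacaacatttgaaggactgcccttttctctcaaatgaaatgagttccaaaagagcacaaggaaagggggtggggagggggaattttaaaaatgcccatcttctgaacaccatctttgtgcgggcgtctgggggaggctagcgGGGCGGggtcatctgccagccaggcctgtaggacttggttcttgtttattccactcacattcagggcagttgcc
Dpp4, chr2:62412232-62412481, minus strand: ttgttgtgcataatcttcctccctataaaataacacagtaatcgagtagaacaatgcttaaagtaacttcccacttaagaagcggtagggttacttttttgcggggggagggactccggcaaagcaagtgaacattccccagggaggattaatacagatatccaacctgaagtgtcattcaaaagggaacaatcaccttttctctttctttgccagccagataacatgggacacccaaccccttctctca
The Ada window was the richest of these in G and C, at 67.2%, and held 1 GC box. The first P2rx7 window was at 51.71% and held 1 AP-1 match and 1 GC box, while the window of its second start (chr5:122650133-122650382), not shown, was at 50.0% and held no match. The Entpd1 and Dpp4 windows, at 47.2% and 43.6%, held none of the 4 motifs. Over 32851 mouse promoter windows of 250 bases, the median was 52.4%, and 32.742% held a GC box, 6.749% an AP-1 match, 1.546% a CRE and 14.045% a RUNX match. A match describes the letters only.

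Libraries held 36028980 to 55784453 counts in KO and 31939816 to 45481478 in WT. All 14 T cell identity genes on the list had counts in every library. Tox, the targeted gene, ranged from 15.3 to 68.0 CPM in KO, with a median of 22.1, and stood at 169.9, 357, 172 and 245 CPM in WT replicates 1 to 4. The groups did not overlap, and the log2 fold change, KO minus WT here and throughout, was -2.93 with an SE of 0.48 (adjusted p = 0.010 by edgeR). WT replicate 1 had the fewest genes with a count, 14365 against 19101 to 19775 in the other WT libraries. The labels also number the libraries from 1 to 8. KO libraries 1 to 3 had 15163 to 15873 genes with a count, and KO libraries 4 to 8 had 16348 to 17304. WT replicate 1 carries number 2 and the other WT libraries carry 5 to 7. Results that rest on WT replicate 1 or on these numbers are therefore given with and without them. The labels name no animals behind the replicates, so p-values measure the spread between libraries, which may be technical.

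Of the 7 genes, Cd38 alone passed the test, and it was lower in KO. For Adora2a all KO libraries lay above all WT libraries, with an adjusted p just over the threshold. Entpd1 and Ada had lower means in KO, and Nt5e a higher mean, with wide spread and overlapping libraries. P2rx7 and Dpp4 had the smallest differences. By edgeR's quasi-likelihood test with a Benjamini-Hochberg adjusted p under 0.05, 1 of 7 was lower in KO and 0 were higher. Over all 14214 genes tested, 2.7% were lower and 0.429% higher, 3.13% in all. Groups did not overlap for 2 of the 7, with KO below WT in 1 and above it in 1. That held for 8.9% of all genes tested, with KO below in 6.31% and above in 2.59%. The median log2 fold change was -0.55 over the 7 and -0.12 over all genes. A missed threshold does not show that levels were alike: the median SE over all tested genes was 0.74 on the log2 scale.

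**Figure D1:**
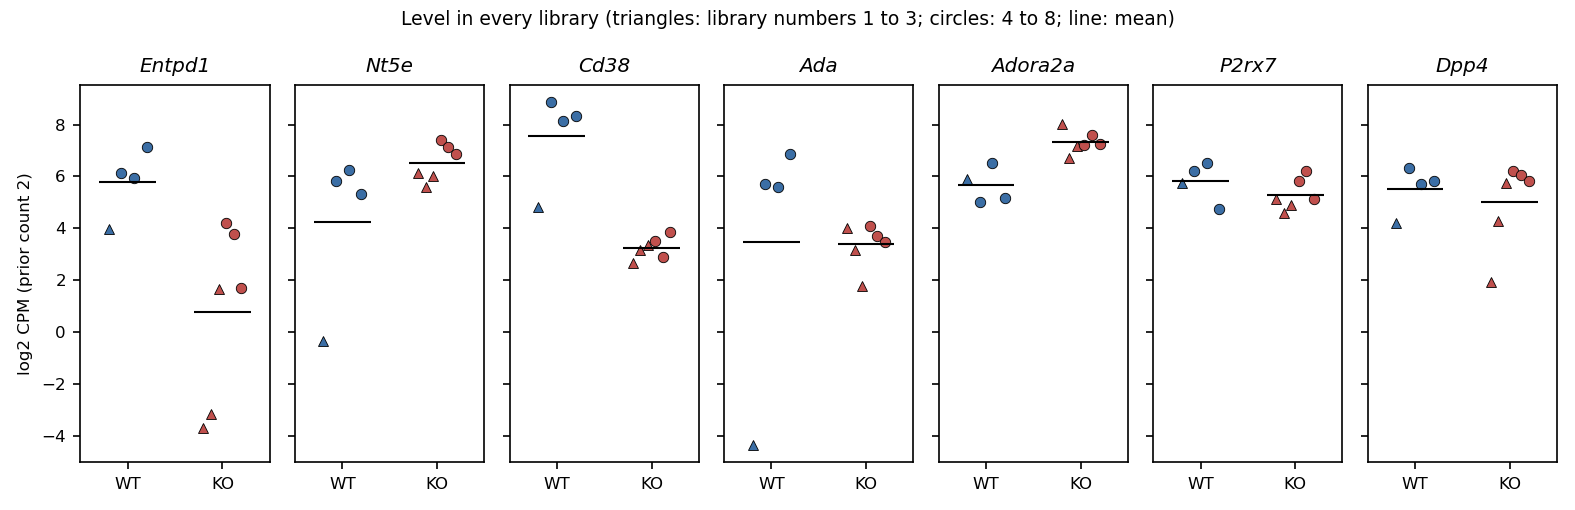
Level of each of the 7 genes in every library, as log2 CPM with a prior count of 2, for WT (blue, 4 libraries) and KO (red, 6 libraries); triangles are library numbers 1 to 3, circles 4 to 8, and lines are group means. Only Cd38 and Adora2a separate the groups, and the lone WT triangle lies far below the other WT libraries for Nt5e and Ada.

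Entpd1 (chr19:40612366-40741602, plus strand, GRCm38.p6), the first enzyme of the route from ATP to adenosine, ranged in KO from 0.0284 to 18.4 CPM with a median of 3.16. WT replicates 1 to 4 held 15.6, 70.9, 61.3 and 139 CPM. KO replicates 1 and 2 were nearly empty, with 1 and 3 counts, while KO replicate 4 lay above WT replicate 1, so the groups overlapped. With a mean of 6.44 ± 7.76 CPM (SD, n = 6) against 71.8 ± 51.1 CPM (SD, n = 4), the fitted log2 difference was -3.48 (SE 1.34, adjusted p = 0.21 by edgeR). The exact 95% Poisson interval of the single count in KO replicate 1 was 0.0253 to 5.57 counts, which covers counting error only. It passed among library numbers 4 to 8 (log2 fold change -2.88, adjusted p = 0.049 by edgeR) and when DESeq2 was used (-3.55, adjusted p = 0.043). In none of the 10 fits that left out 1 library did it pass, and there the adjusted p was 0.090 to 0.49.

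Entpd1 also differed within KO. Replicates 1 to 3, with library numbers 1 to 3, held 0.0284, 0.0637 and 3.12 CPM, and replicates 4 to 6, with numbers 4 to 8, held 18.4, 13.8 and 3.20 CPM. All 3 of the first set were below all 3 of the second. Foxp3, which defines regulatory T cells, a cell type known to carry CD39, was at 0, 0.828, 0, 30.8, 5.13 and 2.37 CPM in KO replicates 1 to 6 and at 22.5, 83.0, 84.9 and 80.2 CPM in WT replicates 1 to 4. Foxp3 was picked out after its values were seen, and none of the 6 regulatory T cell markers passed the test. Their summed level did not follow Foxp3, at 690.0 to 978 CPM in KO and 464 to 1237 CPM in WT. Their mean log2 CPM, Foxp3 included, was 1.68, 3.00, 2.72, 5.25, 4.61 and 4.02 in KO replicates 1 to 6. In WT replicates 1 to 4 that mean was 4.08, 5.56, 5.32 and 6.15. The median log2 fold change of the list was -1.25. The 2 most abundant genes of that list had KO means of 563 CPM (Tnfrsf18) and 238 CPM (Ctla4), beside WT means of 537 and 180.04 CPM. Their log2 fold changes were 0.067 and 0.41, while Foxp3 was at -3.38, Ikzf2 at -2.34, Lrrc32 at -1.55 and Il2ra at -0.94. Ikzf2 did not overlap between groups, at 0.624 to 7.41 CPM in KO and 14.5 to 19.1 CPM in WT (edgeR adjusted p = 0.090). WT replicate 1, the lowest WT library in Foxp3 and Entpd1, was the highest of all libraries in Tnfrsf18 (1011 CPM), and KO replicate 4, the highest KO library in Foxp3 and Entpd1, was the lowest KO library in Tnfrsf18 (400.3 CPM). At most 2 of the 6 markers were at 0 in a library, and Foxp3 itself was at 0 in KO replicates 1 and 3. The part of these markers in the Entpd1 values was not tested. In bulk samples fewer cells of a type and less RNA per cell cannot be told apart.

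Nt5e (chr9:88327197-88372092, plus strand), the enzyme that makes adenosine from AMP, went the other way from Entpd1 in its mean. It ranged in KO from 47.9 to 170.2 CPM with a median of 93.4, and in WT replicates 1 to 4 it stood at 0.725, 56.0, 75.2 and 39.9 CPM. WT replicate 1 held 30 counts and lay far below every other library, and the remaining WT libraries overlapped the lower KO libraries. The mean was 102 ± 48.4 CPM (SD, n = 6) in KO and 43.0 ± 31.6 CPM (SD, n = 4) in WT, which gave a log2 difference of 1.24 (SE 0.86, adjusted p = 0.48 by edgeR). Without WT replicate 1 this was 0.84 (SE 0.45, adjusted p = 0.22 by edgeR). Scaled to 8 T cell receptor complex genes in place of TMM, Nt5e was at 0.12 (SE 0.90, adjusted p = 0.94 by edgeR). The median of all genes was then -0.92. Within KO, the libraries numbered 4 to 8 (117 to 170.2 CPM) were all above those numbered 1 to 3 (47.9 to 69.6 CPM). Among numbers 4 to 8, KO and WT libraries did not overlap, with 117 to 170.2 against 39.9 to 75.2 CPM, and the log2 difference was 1.37 (SE 0.33, adjusted p = 0.051 by edgeR).

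Cd38 (chr5:43868553-43912375, plus strand), the NAD-consuming enzyme, was low in every KO library, from 6.21 to 14.3 CPM with a median of 9.56. The WT libraries, replicates 1 to 4, stood at 28.4, 472, 283 and 322 CPM. Every WT library was above every KO library, and WT replicate 1 was much the closest to KO. The mean was 9.73 ± 2.90 CPM (SD, n = 6) in KO and 276 ± 184 CPM (SD, n = 4) in WT, a fitted difference of 28.4-fold (log2 fold change -4.83 with an SE of 0.62, adjusted p = 0.0031 by edgeR). The call held in 10 of 10 fits that left out 1 library, with log2 fold changes of -5.20 to -4.41 and adjusted p of at most 0.015. Among library numbers 4 to 8 it was -4.97 (edgeR adjusted p = 0.0052). Among numbers 1 to 3, where WT is replicate 1 alone, it was -1.71 (edgeR adjusted p = 0.17).

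B cell markers moved with Cd38, which B cells and plasma cells are also known to express. The 12 B cell markers summed to 274 to 1885 CPM in KO and 14221 to 36384 CPM in WT, and 8 of the 12 were lower in KO by edgeR, beside 2.7% of all genes tested, the share that also stands beside the next 2 lists. None of the 12 was at 0 in any WT library, and at most 3 were at 0 in a KO library. WT replicate 1 was the lowest WT library in Cd38 and in this sum, and also in the sums of the next 2 lists. The 8 plasma cell markers summed to 236 to 873 CPM in KO and 823 to 5982 CPM in WT, with 2 of the 7 tested called lower. The 16 myeloid and dendritic cell markers summed to 5.11 to 201 CPM in KO and 1320 to 7290 CPM in WT, with 4 of the 15 tested called lower, and 2 to 12 of the 16 were at 0 in a KO library. The part of these cells in the Cd38 difference was not tested. The most abundant genes of these lists were Cd74, Cd79a, Jchain, Xbp1, Lyz2 and Csf1r. Of these, Xbp1 alone had a higher mean in KO, at 358 CPM against 222 CPM in WT. Its libraries overlapped (log2 fold change 0.69, edgeR adjusted p = 0.68). In KO replicate 1 it held 675 of the 786 CPM in the plasma cell sum. Cd74, the MHC class II invariant chain, spanned 193 to 1568 CPM in KO and 11604 to 25445 CPM in WT.

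**Figure D2:**
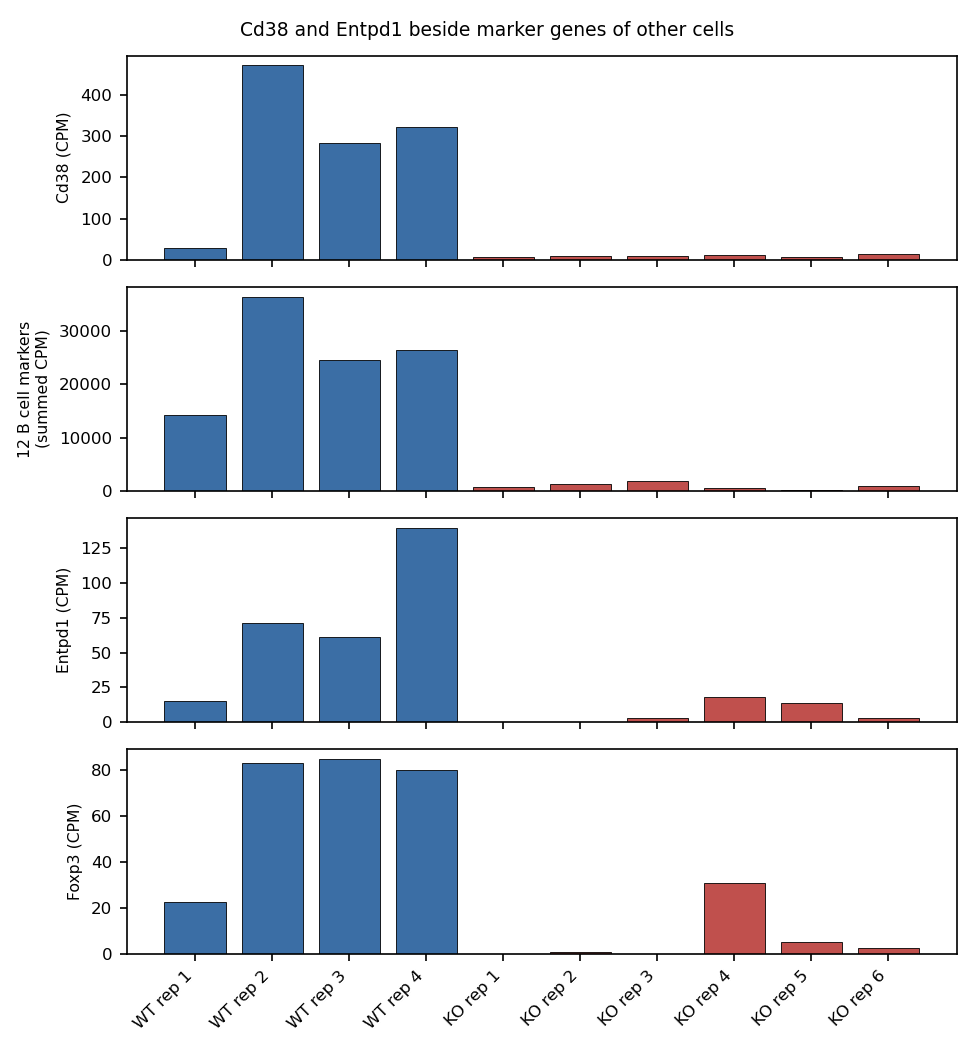
Cd38, the summed CPM of 12 B cell markers, Entpd1 and Foxp3 in each library, as bars from 0 in CPM, with WT in blue and KO in red. WT replicate 1 is the lowest WT library in all 4 panels, and Cd38 and the B cell markers are low in all 6 KO libraries.

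Ada (chr2:163726584-163750239, minus strand), the enzyme that removes adenosine, ranged in KO from 3.34 to 17.1 CPM with a median of 12.0. WT replicates 1 to 4 had 0, 51.7, 48.7 and 117 CPM. The 3 other WT libraries were above every KO library, while WT replicate 1 held 0 of 45481478 counts, which allows up to 3 counts or 0.0725 CPM. The mean was 11.6 ± 5.07 CPM (SD, n = 6) in KO and 54.4 ± 48.0 CPM (SD, n = 4) in WT, a log2 difference of -2.23 (SE 1.19, adjusted p = 0.36 by edgeR). Without WT replicate 1 Ada was lower in KO, at -2.64 (SE 0.49, adjusted p = 0.013 by edgeR), and among numbers 4 to 8 at -2.34 (SE 0.43, adjusted p = 0.025 by edgeR). With limma-voom on all libraries the sign turned, at 0.54 (adjusted p = 0.90).

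Adora2a (chr10:75316877-75334784, plus strand), the receptor through which adenosine raises cAMP, ranged in KO from 104 to 262 CPM with a median of 151. The values of WT replicates 1 to 4 were 59.7, 32.1, 92.0 and 35.9 CPM. Every KO library was above every WT library, and the closest were KO replicate 2 and WT replicate 3. The mean was 168 ± 54.4 CPM (SD, n = 6) in KO and 54.9 ± 27.5 CPM (SD, n = 4) in WT, a fitted difference of 3.05-fold (log2 fold change 1.61 with an SE of 0.39, adjusted p = 0.053 by edgeR). It passed when WT replicate 1 was left out (1.65, adjusted p = 0.041 by edgeR) and when WT replicate 3 was (1.98, adjusted p = 0.021 by edgeR). Over the 10 fits that left out 1 library its adjusted p was 0.021 to 0.19. DESeq2 (1.58, adjusted p = 0.0016), limma-voom (1.65, adjusted p = 0.026) and a stricter filter in edgeR (1.66, adjusted p = 0.049) also called it. The other 8 of the 11 alternatives besides leaving out libraries did not. Among these were library numbers 4 to 8, at 1.68 (SE 0.48, adjusted p = 0.087 by edgeR). Scaling to 8 T cell receptor complex genes in place of TMM moved the median of all genes by -0.80, to -0.92, and put Adora2a at 0.74 (edgeR adjusted p = 0.39), still above that median. Unlike Nt5e and Entpd1, Adora2a overlapped between KO libraries 1 to 3 (104 to 262 CPM) and 4 to 8 (149.6 to 193 CPM).

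P2rx7 (chr5:122643911-122691432, plus strand), the ATP-gated channel, ranged in KO from 23.8 to 73.3 CPM with a median of 35.1. In WT replicates 1 to 4 it stood at 53.8, 74.5, 92.6 and 26.6 CPM. WT replicate 4 was below 5 of the 6 KO libraries, so the groups overlapped. The mean was 42.3 ± 18.8 CPM (SD, n = 6) in KO and 61.9 ± 28.4 CPM (SD, n = 4) in WT, and the log2 difference was -0.55 (SE 0.43, adjusted p = 0.54 by edgeR). Within KO, libraries numbered 1 to 3 (23.8 to 34.8 CPM) were all below those numbered 4 to 8 (35.3 to 73.3 CPM), although KO replicates 1 and 6 nearly met. None of the alternatives called it.

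Dpp4 (chr2:62330073-62412231, minus strand), the peptidase CD26, ranged in KO from 3.72 to 73.8 CPM with a median of 55.0. In WT replicates 1 to 4 it stood at 18.6, 80.5, 52.4 and 57.1 CPM. KO replicates 1 and 2 and WT replicate 1 were low, all of them with library numbers 1 or 2, and the others lay between 52.4 and 80.5 CPM in both genotypes. The mean was 45.6 ± 27.7 CPM (SD, n = 6) in KO and 52.1 ± 25.5 CPM (SD, n = 4) in WT, and the log2 difference was -0.19 (SE 0.69, adjusted p = 0.91 by edgeR). Its sign turned in several fits, among them numbers 4 to 8 alone, at 0.11 (SE 0.28, edgeR adjusted p = 0.84). A gene on the other strand, RP23-343C17.1, overlaps 232 bases or 3.671% of the Dpp4 exon length and had 8 counts in KO and 29 in WT. The counting used no strand, so reads in that overlap cannot be assigned to either gene.

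Calls among the 7 genes changed when library sets were compared. Without WT replicate 1, Cd38 and Ada were lower and Adora2a higher in KO, that is 2 of 7 and 1 of 7, beside 7.9% and 2.92% (10.8% in all) of the 15197 genes tested. Among library numbers 4 to 8, Entpd1, Cd38 and Ada were lower, 3 of 7, and 0 were higher, beside 7.18% and 0.842% (8.03% in all) of the 14378 genes tested. Cd38 passed in all 3 of these fits.

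**Figure D3:**
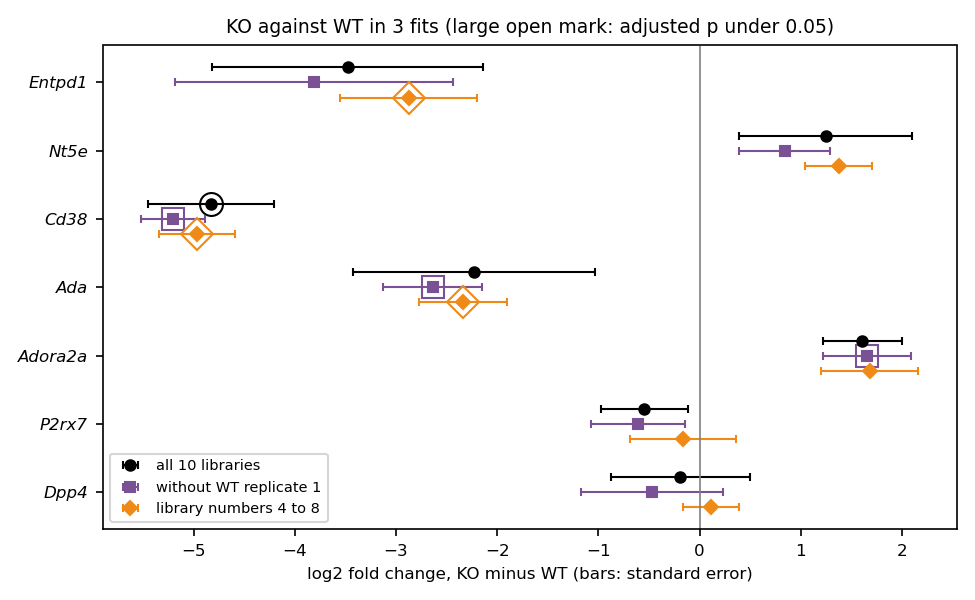
Log2 fold change of KO against WT for each of the 7 genes in 3 edgeR fits, with bars for the standard error and a large open mark where the adjusted p was under 0.05. Cd38 carries an open mark in each fit, and the bars of Entpd1, Nt5e and Ada are shorter for library numbers 4 to 8 than for all 10 libraries.

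The order of the levels, compared per kilobase of exon, differed between the groups. In KO, Adora2a led with 54.7 ± 17.8 CPM per kb (SD, n = 6), and its lowest library was above the highest library of Nt5e, the next gene, at 11.8 ± 5.63. Dpp4 (7.21), P2rx7 (7.09), Ada (5.79), Cd38 (2.50) and Entpd1 (1.15) followed, with no neighbours apart from Adora2a and Nt5e separated in all libraries. In WT, Cd38 led with 71.0 ± 47.4 CPM per kb (SD, n = 4), ahead of Ada (27.1), Adora2a (17.9), Entpd1 (12.9), P2rx7 (10.4), Dpp4 (8.25) and Nt5e (4.99), and neighbours overlapped throughout. Adora2a was the highest of the 7 genes in 6 of 6 KO libraries and in WT replicate 1, and Cd38 was highest in the other 3 WT libraries.

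The 2 enzymes of the ATP to adenosine route stood in opposite order in the 2 groups. The ratio of Nt5e to Entpd1, both per kb, was 1592, 488, 13.5, 6.00, 6.60 and 23.7 in KO replicates 1 to 6. In WT replicates 1 to 4 it was 0.0302, 0.513, 0.795 and 0.186. Nt5e was thus above Entpd1 in every KO library and below it in every WT library. The first ratios in KO rest on 1 and 3 Entpd1 counts and the first in WT on 30 Nt5e counts. This ratio was chosen after the values were seen, contains a gate gene and has no test.

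Genes related to the 7 by function were described from 6 lists, with 95 genes listed, 93 in the tables and 65 tested; Nampt and P2ry10b were not analysed here. By edgeR 1 was higher in KO (Slc29a1), 2 were lower (Bst1 and Pnp) and 62 were not called, beside 0.429% higher and 2.7% lower of all genes. Their median log2 fold change was -0.35, against -0.12 over all genes tested.

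Slc29a1, the nucleoside transporter ENT1 that carries adenosine across the membrane, ranged in KO from 1516 to 3976 CPM with a median of 2024, and in WT replicates 1 to 4 it stood at 877, 443, 354 and 426 CPM. The groups did not overlap, with means of 2373 ± 934 CPM (SD, n = 6) and 525 ± 238 CPM (SD, n = 4) and a log2 difference of 2.18 (SE 0.38, adjusted p = 0.014 by edgeR). It passed again in 10 of 10 fits that left out 1 library.

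Pnp, the phosphorylase that splits inosine downstream of Ada, ranged in KO from 37.0 to 49.8 CPM with a median of 41.8, and in WT replicates 1 to 4 it stood at 97.8, 95.9, 59.7 and 123 CPM. Every KO library was below every WT library (log2 difference -1.16 with an SE of 0.26, adjusted p = 0.039 by edgeR). It no longer passed in 8 of the 10 fits that left out 1 library, with the largest adjusted p at 0.21 without WT replicate 4. It held without WT replicate 1 or 3. Of the 11 alternatives besides leaving out libraries, Pnp passed in 6. It missed the threshold among library numbers 4 to 8 (-1.19, edgeR adjusted p = 0.075). The same held without immunoglobulin genes (-1.09, edgeR adjusted p = 0.060) and with no filter on low counts (-1.10, edgeR adjusted p = 0.089).

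Bst1, the paralog of Cd38 that also consumes NAD, had 4 counts in all of KO, all in replicate 6, and 638 in WT. By WT replicate it had 13, 66, 175 and 384 counts, or 0.314 to 10.8 CPM, so the groups did not overlap (edgeR adjusted p = 0.025). With 5 of the 6 KO libraries at 0, it was tested only because of its WT counts, so its direction was set by the filter and the call adds no support. It did not enter the stricter filter of at least 1 CPM in 4 libraries, and the size of its fitted fold change depends on the prior count. Leaving out 1 library ended the call in 7 of 10 fits, with an adjusted p of up to 0.099 without WT replicate 4, and it held without KO replicate 6 or WT replicate 1 or 3.

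Among the lists, the 10 tested of 16 other ectonucleotidases had no call and a median log2 fold change of -0.41. The NAD and ADP-ribose enzymes had 1 lower of 11 tested, Bst1, and Art3, an ADP-ribosyltransferase family gene, did not overlap between groups. Art3 was at 1.87 to 31.9 CPM in KO and 0 to 1.83 CPM in WT (log2 fold change 3.92, edgeR adjusted p = 0.12). Adenosine uptake and conversion had 1 higher and 1 lower of 15 tested, namely Slc29a1 and Pnp. Hprt, a purine salvage enzyme, was at 49.2 to 119 CPM in KO and 132 to 218 CPM in WT (log2 fold change -1.02, edgeR adjusted p = 0.11).

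The adenosine receptors and their cAMP arm had no call among 16 tested, with a median of 0.23. The P2X and P2Y receptors and ATP release genes had no call among 8 tested, with a median of -2.28, and 6 of the 8 averaged at most 16.6 CPM over all libraries. Several of the 8 had KO medians of 0 to 0.0284 CPM and entered the test mainly through WT, so the filter largely set their direction. The negative median therefore cannot be read as a shift of this list. Ectopeptidases, including the relatives of Dpp4, had no call among 5 tested and a median of 0.62. Dpp3, a cytosolic dipeptidyl peptidase, was at 363 to 530 CPM in KO and 84.2 to 359.9 CPM in WT (log2 fold change 1.19, edgeR adjusted p = 0.16). Dpp7, a dipeptidyl peptidase of intracellular vesicles, was at 20.8 to 35.1 CPM in KO and 45.4 to 65.0 CPM in WT (log2 fold change -0.85, edgeR adjusted p = 0.14). Neither pair of groups overlapped, and neither gene passed.

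**Figure D4:**
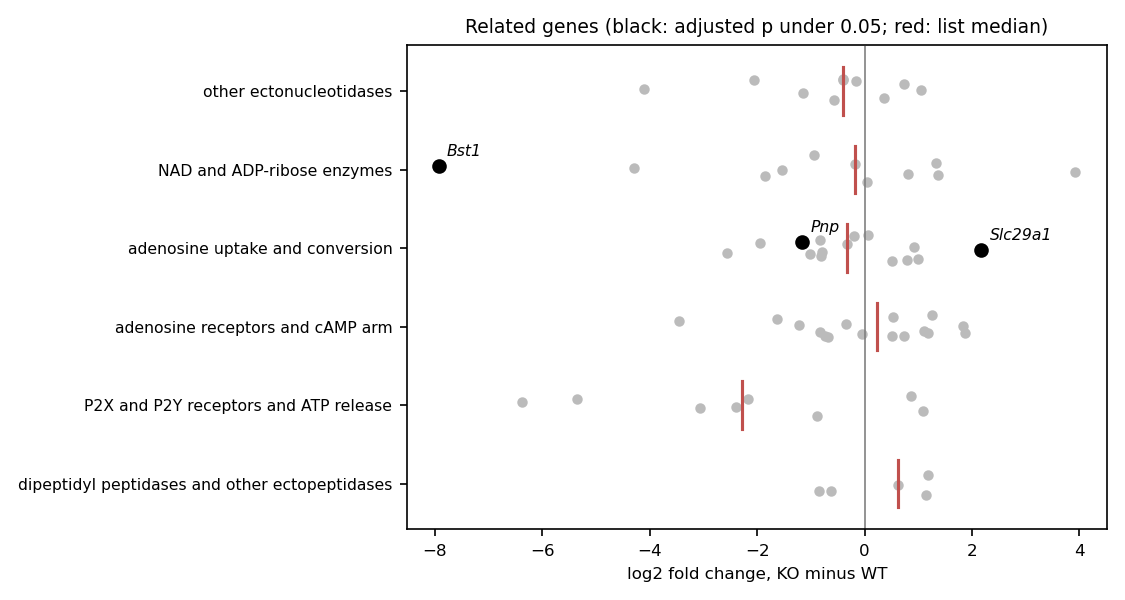
Log2 fold change of KO against WT for the 65 tested related genes, in 6 lists, with black points for adjusted p under 0.05 and a red line at each list's median. Slc29a1 is the only black point to the right of 0. Bst1 was tested only because of its WT counts, and its position depends on the prior count.

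Related gene calls depended on WT replicate 1. Without it 71 were tested, of which 3 were higher (Slc29a1, Art3 and Nt5c) and 9 lower, beside 2.92% and 7.9% of all genes. Of the 9, only Bst1, Pnp, Parp1 and Art2a-ps were among the 65 tested with all libraries. The other 5 (P2ry12, Anpep, Entpd3, Adcy9 and Gda) were at or near 0 in KO and entered the test only through WT, so their direction was set by the filter. Among library numbers 4 to 8, 71 were tested, of which 2 were higher (Slc29a1 and Art3) and 8 lower, beside 0.842% and 7.18% of all genes. Of the 8, 4 were outside the 65 (P2ry12, Anpep, Entpd3 and Gda), and the filter set their direction here too. Names beyond Slc29a1, Art3, Bst1 and Pnp were given after their values were seen.

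For each of the 7 genes, genes with the nearest pattern were found among 7652 candidates as the root mean square difference of centred log2 CPM over the 10 libraries. Adora2a was matched most closely, by Lmbr1l (0.22) and Naprt (0.23), and both of these also had higher means in KO. Among the 2 genes nearest to Cd38 was Cd22 (0.54), a B cell receptor co-receptor that is also on the B cell list. P2rx7 was nearest to Ccdc88c and Asxl2 (both 0.39), Nt5e to Tubgcp3 (0.43) and Trpm4 (0.45), and Dpp4 to Golga1 (0.47) and Fgfr1op (0.50). Ada was nearest to Aim1 (0.54) and Ltn1 (0.58). Entpd1 had the most distant neighbours, Cdc6 (0.92) and Dennd3 (0.99), and also the largest SD over libraries, 3.72 on the log2 scale against 0.69 for P2rx7.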

How the data were processed

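Per the labels' protocols, RNA from sorted cells was amplified by SMART-seq V4 and sequenced as paired reads. The authors' deposited values are raw counts per gene, made with featureCounts 1.6.2 on GENCODE M17, per the file headers, with no strand option and no option to count reads that match several places. STAR and FastQC are named, without versions, in the submitters' processing notes.

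From these counts, edgeR 4.0.16 (R 4.3.3) with TMM factors and filterByExpr compared KO with WT over all 14214 genes kept, by the quasi-likelihood test with genotype as the only term and Benjamini-Hochberg adjustment at 0.05. SE is the log2 fold change over the square root of F. Lengths, positions and strands came from the file's exons and GRCm38.p6. Depth was 31939816 to 55784453 counts per library, and no 2 libraries of a group agreed within sampling noise (chi-square). The code was tested on simulated counts with 50 changed genes per fold. It recovered 0% of 2-fold, 16% of 4-fold, 38% of 8-fold and 74% of 16-fold changes, and 3.03% of its calls were false.

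The 7 genes, the lists and the alternatives were chosen with earlier results of these data known. Named genes were Tox; the 7; related genes that passed, or had a mean of at least 8 CPM and groups without overlap; the top 2 markers, by mean CPM, per list of other cells; the 2 nearest patterns; and overlapping genes on the other strand. Foxp3, Ikzf2, Lrrc32, Il2ra, Pdcd1 and Lag3 were added to these after their values were seen. A gene that this rule names is not reported here. Alternatives were other scalings, filters, DESeq2 1.42.0, limma-voom (limma 3.58.1), a replicate block, library sets and leaving out each library.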

Additional observations from a re-analysis of the deposited data

Results flagged for a closer look

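Single libraries stood apart from the rest of their group on the log2 scale in 3 cases, by the gap to the nearest library over the group's range (Dixon's test at 95%). Nt5e in WT replicate 1, at 0.725 CPM, lay below 39.9 to 75.2 CPM in the other WT libraries. Ada in WT replicate 1, at 0 CPM, lay below 48.7 to 117 CPM. Bst1 in KO replicate 6, at 0.0902 CPM, was the only KO library with any count, 4 in all; with the others tied at 0, any count would have stood apart, so this says nothing of that library. Chance picks out about 1 in 20 such groups, and 22 groups were examined.

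The difference between KO and WT itself differed between library numbers 4 to 8 and numbers 1 to 3 for 3 of the 7 genes, by an interaction term in edgeR. That term called 1421 of the 14214 genes tested. The lower set holds a single WT library, replicate 1, which is assumed to vary like the others. For Nt5e the log2 fold change was lower by 5.06 in the upper set (-5.06, edgeR adjusted p = 0.0022), and for Cd38 it was more negative there (-3.28, edgeR adjusted p = 0.014). For Ada the term was -14.0 (edgeR adjusted p = 0.0035), a size that depends on the prior count because WT replicate 1 held 0 counts. Entpd1, Adora2a, P2rx7 and Dpp4 did not pass this test, with terms of 0.90, 0.12, 0.64 and -0.43.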

How the results depend on the processing

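Cd38 and Adora2a kept their directions under all 11 alternatives besides leaving out libraries, as did Entpd1, Nt5e and P2rx7, and the cause of the changes below was not tested. Calls changed for Adora2a with the stricter filter (1.66), DESeq2 (1.58) and limma-voom (1.65), and for Entpd1 with DESeq2 (-3.55) and numbers 4 to 8 (-2.88), where they passed. Among numbers 4 to 8 Ada passed (-2.34); among numbers 1 to 3, whose WT arm is replicate 1 alone (assumed to vary like the KO libraries), Nt5e passed (6.42), Cd38 was lost (-1.71) and Ada turned (11.73). Ada also turned with limma-voom (0.54). Dpp4 turned when the library set was a term (0.18) and in numbers 4 to 8 (0.11) and numbers 1 to 3 (0.51), and never passed.

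With the replicate block over replicates 1 to 4 no gene passed (0 higher, 0 lower; 2299 at an unadjusted p under 0.05, over 8 libraries and 13484 genes, against 2554 over all 10 libraries and 14214 genes), and Cd38 was at -4.47 (adjusted p = 0.11). Libraries with the same replicate number had correlations of deviations of 0.29, -0.25, -0.22 and 0.30, so replicate numbers were not taken to pair libraries. Library number 2 is shared by KO replicate 2 and WT replicate 1 (0.32), and number 6 by KO replicate 5 and WT replicate 3 (0.13). WT replicate 1 was also at 0.29 and 0.30 with KO replicates 1 and 3. A pairing by library number was not tested.

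Genes higher and lower in KO (61 and 384) became 17 and 1862 with receptor complex scaling, where the higher share fell from 13.7% to 0.905% of calls. They became 222 lower without immunoglobulin genes, 39 higher with no filter, 613 and 999 with DESeq2 (38.0% higher), 204 and 680 with limma-voom, 116 higher with the set term, 121 and 1033 in numbers 4 to 8, and 316 and 79 in numbers 1 to 3 (80% higher). Related genes (1 higher, 2 lower) became 11 lower with receptor complex scaling, 1 lower without immunoglobulin genes or with the stricter filter, 4 and 6 with DESeq2, 2 and 4 with limma-voom, 2 and 8 in numbers 4 to 8, and 0 and 0 with the block and in numbers 1 to 3.

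Leaving out 1 library gave 10 to 443 genes higher and 143 to 1201 lower (lowest without WT replicate 4, highest without WT replicate 1), and 1 to 3 and 0 to 9 related genes. Log2 fold changes ranged from -4.10 to -2.88 for Entpd1, 0.84 to 1.66 for Nt5e, -5.20 to -4.41 for Cd38, -2.64 to -1.50 for Ada, 1.49 to 1.98 for Adora2a, -0.74 to -0.28 for P2rx7 and -0.47 to 0.15 for Dpp4, which turned without KO replicate 1 (0.11) or 2 (0.022) and WT replicate 2 (0.15).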

Other observations

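Markers of other cells that were not set beside a gene above are given here as summed CPM. The 7 NK and CD8 T cell markers, led by Klrb1c and Cd8b1, were at 212 to 321 in KO and 105 to 199.9 in WT, and Klrb1c made up most of the KO sum (167 to 273 CPM in KO, 8.17 to 56.9 CPM in WT). The other 5 tested markers of that list had negative log2 fold changes and none of them passed, and the median of the 6 tested was -2.67. The 8 stromal and endothelial markers, led by Pecam1 and Pdgfrb, were at 172 to 379 in KO and 81.9 to 360.02 in WT. The 6 melanoma markers, led by Pmel and Mitf, reached at most 8.81, and the 6 red cell markers, led by Hbb-bs and Hba-a1, reached 397 in KO and 56.1 in WT. T cell identity genes summed to 27042 to 38889 in KO and 12387 to 27290 in WT. The part of these markers in any result was not tested.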
